A study of Homo sapiens with 6 samples.

Results

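The 10 genes described here are the zinc-binding metallothioneins MT1A, MT1E, MT1F, MT1G, MT1M, MT1X, MT2A and MT3, the transcription factor MTF1 and the zinc exporter SLC30A1. They were chosen by gene symbol, with no measured value in the rule but with earlier results of these data known. All 10 are among the 57133 symbols in the count table. Metallothioneins are small, cysteine-rich proteins that hold zinc and copper and bind toxic metals such as cadmium. When free zinc rises, MTF1 (metal regulatory transcription factor 1) binds metal response elements (MREs) in DNA and activates the metallothionein genes and SLC30A1. The SLC30A1 protein (ZnT1) moves zinc out of the cell across the plasma membrane. MT1 and MT2 genes are also induced by glucocorticoids, while MT3 is known chiefly from the brain.

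The libraries were made from T98G, a human glioblastoma cell line in which CBX8, a chromodomain subunit of the Polycomb repressive complex PRC1, had been knocked out with CRISPR. The 3 CBX8 KO libraries come from knockout cells that carried the empty doxycycline-inducible TetO-FUW vector, and the 3 WT CBX8 re-expression libraries from knockout cells that carried the vector with V5-tagged CBX8. Both lines also carried the rtTA activator, had been selected with puromycin and hygromycin, and are labelled with doxycycline at 1 μg/ml for 72 h. The methods describe selection of transfected and transduced cells and no cloning step, so the effect of CBX8 and differences between the separately selected lines cannot be told apart. The genotype label of the re-expression libraries reads wild type, and their titles and the methods were followed instead. Total counts lay between 7950190 and 8659796 per library. Each pair of libraries within a condition differed beyond counting noise (chi-square of 2.06 to 3.09 per degree of freedom), so all 6 were kept apart. CBX8 itself rose from between 83 and 104 counts to between 27791 and 31408, which matches the labels. Of the 9 astroglial and glioma markers checked, VIM, CD44, SOX9 and GFAP had at least 10 counts in every library, while S100B, AQP4, SOX2 and FABP7 had 0 in all 6. NES, the remaining one, had between 0 and 4 counts in each library. Levels are given as CPM, the count scaled to a TMM-adjusted library of 1000000. Summed, these markers ran from 5583 to 5892 CPM in the 3 CBX8 KO libraries and from 5206 to 5611 CPM in the others. CD44 (log2 fold change -0.21, edgeR adjusted p = 0.0097) and SOX9 (-0.27, edgeR adjusted p = 0.0039) were called lower upon re-expression, while VIM (0.05, edgeR adjusted p = 0.61) and GFAP (0.68, edgeR adjusted p = 0.13) did not pass. The summed immune, endothelial and epithelial markers stayed under 1 CPM in each library, and oligodendrocyte markers were at most 1.67 CPM. Of the 4 neuronal markers, SYT1 and SNAP25 had at least 10 counts in every library, RBFOX3 had at most 1, and STMN2 had 0. Summed neuronal markers ran from 11.3 to 13.0 CPM in CBX8 KO and from 13.9 to 16.7 CPM in the others. The part of these marker differences in the results below was not tested.

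The 8 metallothionein members lie in 1 cluster on chromosome 16 (hg38, from 56565073 to 56684196), which also holds MT4, MT1B, MT1H and several pseudogenes. MTF1 (chromosome 1 from 37809574 to 37859592, minus strand) and SLC30A1 (chromosome 1 from 211571568 to 211579161, minus strand) lie elsewhere. The paralogs are close copies of each other, which matters for reading their counts. The coding sequences of the 2 metallothioneins that carry nearly all counts are shown, from the first to the last coding base, with the positions at which they differ in capitals. Both genes have 3 exons and are on the plus strand of chromosome 16, MT2A from 56608584 to 56609497 and MT1X from 56682470 to 56684196.
MT2A: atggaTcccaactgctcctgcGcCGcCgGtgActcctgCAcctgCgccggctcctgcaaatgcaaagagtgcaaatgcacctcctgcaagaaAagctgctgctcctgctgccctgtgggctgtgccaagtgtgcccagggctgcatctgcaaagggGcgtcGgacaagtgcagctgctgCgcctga
MT1X: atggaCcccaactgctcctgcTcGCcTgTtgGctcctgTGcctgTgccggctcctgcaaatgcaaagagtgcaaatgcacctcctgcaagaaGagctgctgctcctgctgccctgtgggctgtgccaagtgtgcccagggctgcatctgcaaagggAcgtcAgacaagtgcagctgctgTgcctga
The pair differed at 14 of 186 positions, and the longest stretch they shared was 63 bases, shorter than the 100 bp reads. Against MT2A, the closest coding transcripts of the MT1 members differed by 9 to 19 edits (89.8% to 95.2% identity), and MT3 by 51 edits (75.4% identity). No window of 100 bases of the canonical MT2A, MT1A, MT1E, MT1F, MT1G, MT1M or MT3 transcript occurred exactly in a GENCODE transcript of another gene. With windows of 50 bases, 51.0% of those of MT1X, 11.1% of those of MT2A and 19.9% of those of MT1G did. For MT1X, 22.0% of the 100-base windows are shared with an unnamed long noncoding RNA, ENSG00000259827, which overlaps it on the same strand. How the authors' counting treated such reads is not given in the sources used here, so the split of reads among MT1X, this transcript and the other paralogs is uncertain.

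The 250 bases upstream of the RefSeq start sites (GRCh38.p14) are shown for 3 of the tested members, because MREs are the known link between MTF1 and its targets. RefSeq promoter sequences were matched for 4 of the 10 members. Capitals mark the MRE core, searched as TGCACNC and TGCGCNC on both strands, and each sequence reads along the strand of its gene. The windows are chr16:56608334-56608583 (plus strand) for MT2A, chr16:56682220-56682469 (plus strand) for MT1X and chr1:211579162-211579411 (minus strand) for SLC30A1.
MT2A: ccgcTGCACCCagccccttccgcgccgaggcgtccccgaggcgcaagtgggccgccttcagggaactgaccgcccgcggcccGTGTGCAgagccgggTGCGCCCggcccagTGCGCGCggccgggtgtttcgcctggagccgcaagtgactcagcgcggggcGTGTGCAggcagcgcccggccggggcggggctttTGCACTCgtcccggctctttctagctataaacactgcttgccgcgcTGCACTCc
MT1X: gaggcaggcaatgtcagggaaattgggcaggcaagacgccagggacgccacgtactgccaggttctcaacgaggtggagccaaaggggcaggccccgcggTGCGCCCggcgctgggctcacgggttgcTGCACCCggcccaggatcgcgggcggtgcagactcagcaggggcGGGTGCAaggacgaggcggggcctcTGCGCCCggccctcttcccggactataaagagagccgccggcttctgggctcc
SLC30A1: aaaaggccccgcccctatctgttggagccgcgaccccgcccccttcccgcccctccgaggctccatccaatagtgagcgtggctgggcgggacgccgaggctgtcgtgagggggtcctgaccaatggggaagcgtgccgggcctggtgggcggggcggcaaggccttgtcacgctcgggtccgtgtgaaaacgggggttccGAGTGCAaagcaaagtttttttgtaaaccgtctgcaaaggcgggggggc
The upstream window of MT2A held 7 MRE cores, that of MT1X 4 and that of SLC30A1 1, while the window of MTF1 held 0. Over all 35116 promoter windows of this length, 24.8% held at least 1 core and 0.37% held at least 4. MT2A and MT1X also carry the letters TATAAA shortly before the start site. Of all windows, 10.7% held these letters anywhere in the 250 bases, on either strand. None of the matches overlapped another. These matches describe letters only and do not show binding.

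**Figure D1:**
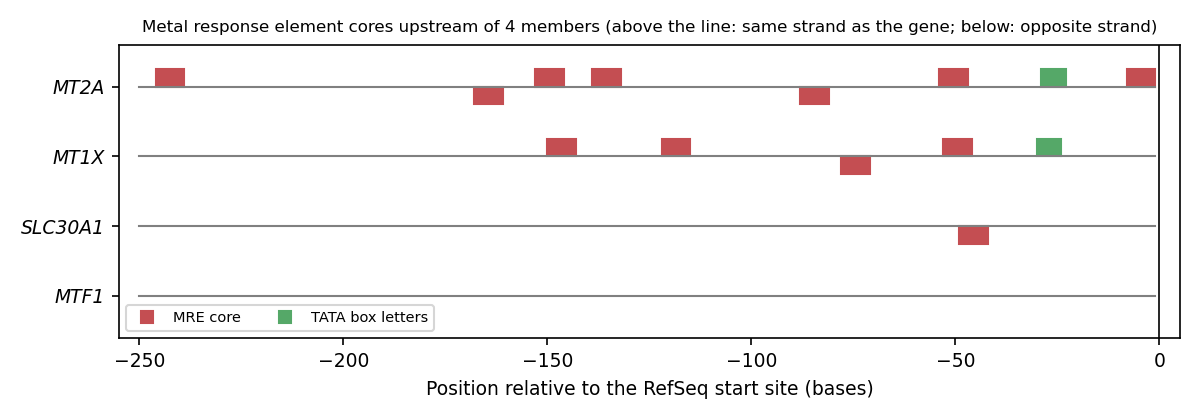
Positions of the MRE core and of TATAAA in the 250 bases upstream of the RefSeq start site of 4 members, with distance from the start site in bases on the x axis and boxes above or below each line for the strand of the gene or the opposite strand. MT2A has 7 MRE cores spread over the window, MT1X has 4, SLC30A1 has 1 and MTF1 has 0.

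Metallothionein RNA in these cells was almost wholly MT2A, and it was lower upon WT CBX8 re-expression, while the zinc exporter SLC30A1 was higher. MT2A fell by 14.5% and SLC30A1 was 1.51-fold higher. MT1X and MTF1 did not pass the test. Only 4 of the 10 members had enough counts to be tested, namely MT2A, MT1X, MTF1 and SLC30A1. Of these, 1 was called higher and 1 lower at FDR < 0.05 by the quasi-likelihood test of edgeR, beside 6.23% of all 14461 tested genes called higher and 6.63% called lower. The conditions did not overlap for the same 2 of 4 tested members, as was seen for 28.9% of all tested genes. With 4 members tested, these shares describe single genes rather than the group. In these bulk libraries, fewer cells with a transcript and less RNA per cell cannot be told apart.

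MT2A, the most abundant metallothionein, had 3145, 3160 and 3190 counts in CBX8 KO replicates 1 to 3 and 2802, 3140 and 2695 counts in the re-expression replicates. In CPM these are 397, 375 and 408 in CBX8 KO and 329, 359 and 321 upon re-expression. Even the highest re-expression library was under the lowest CBX8 KO library, a separation found in this direction for 14.4% of tested genes, and the closest values were those of CBX8 KO replicate 2 and re-expression replicate 2. The mean fell from 394 ± 16.7 to 336 ± 19.9 CPM (SD, n = 3 each). By edgeR this is a log2 difference of -0.23 with a standard error of 0.05 and an adjusted p of 0.0036.

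SLC30A1, the zinc exporter, was counted 139, 154 and 132 times in CBX8 KO and 218, 236 and 227 times upon re-expression. These correspond to 17.5, 18.3 and 16.9 CPM against 25.6, 27.0 and 27.0 CPM. The 3 CBX8 KO libraries lay close together and all below the 3 re-expression libraries, a separation found in this direction for 14.4% of tested genes. The mean rose from 17.6 ± 0.70 to 26.5 ± 0.79 CPM (SD, n = 3 each). By edgeR the log2 difference was 0.59 with a standard error of 0.10 and an adjusted p of 9.7e-05.

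MT1X, a ubiquitous MT1 isoform, had 129, 181 and 153 counts in CBX8 KO and 171, 198 and 165 upon re-expression, or 16.3, 21.5 and 19.6 CPM against 20.1, 22.6 and 19.6 CPM. The libraries of the conditions overlapped, and CBX8 KO replicate 1 was the lowest of the 6. The means were 19.1 ± 2.64 and 20.8 ± 1.603 CPM (SD, n = 3 each), or 0.12 ± 0.11 (SE) as log2 fold change with an edgeR adjusted p of 0.55. Without CBX8 KO replicate 1 the log2 fold change of MT1X was 0.01.

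MTF1, the zinc sensor, had 211, 248 and 217 counts in CBX8 KO and 245, 291 and 278 upon re-expression. Its levels were 26.6, 29.5 and 27.8 CPM against 28.8, 33.2 and 33.1 CPM, so re-expression replicate 1 lay within the CBX8 KO range and the others above it. The means were 27.96 ± 1.43 and 31.7 ± 2.53 CPM (SD, n = 3 each). As a log2 fold change this was 0.18 ± 0.09 (SE), with an edgeR adjusted p of 0.22.

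**Figure D2:**
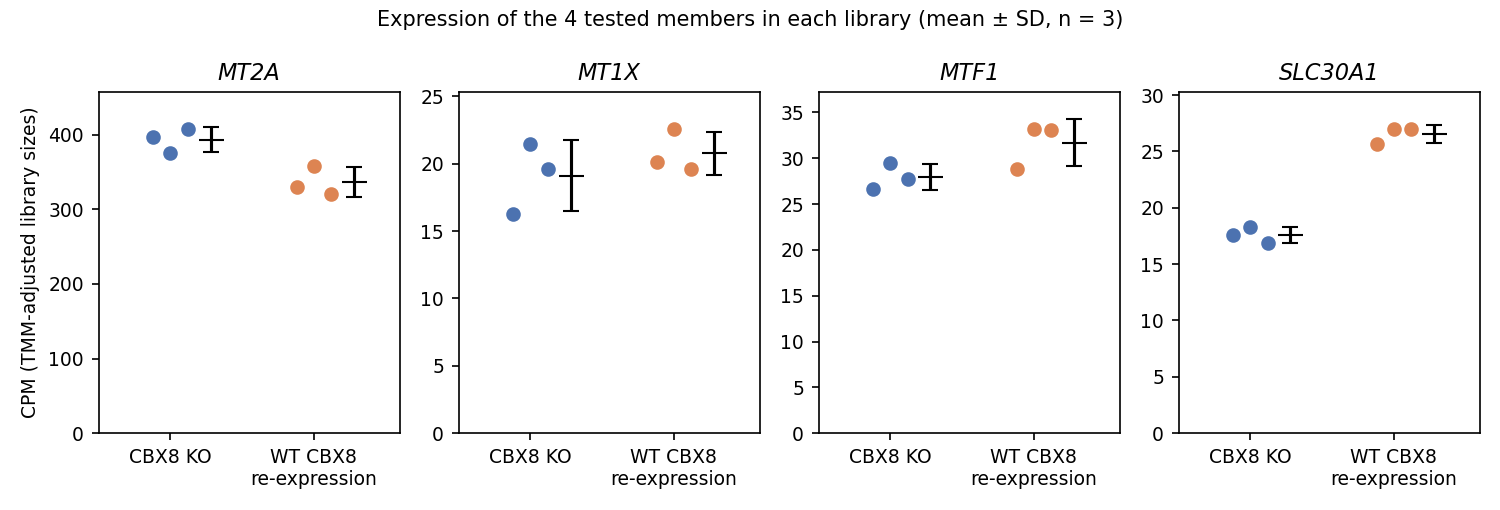
CPM of MT2A, MT1X, MTF1 and SLC30A1 in each library (points), with the mean ± SD of the 3 libraries of each condition (bars) and y axes that start at 0. MT2A lies between 375 and 408 CPM in CBX8 KO and between 321 and 359 CPM upon re-expression, SLC30A1 rises from 16.9 to 18.3 CPM to 25.6 to 27.0 CPM, and the conditions overlap for MT1X and MTF1.

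The other 6 members were at or near the limit of detection. MT1F had 7, 8 and 2 counts in CBX8 KO and 9, 9 and 4 upon re-expression. MT1E had 5, 0 and 2 counts against 10, 6 and 4, and MT1G had 1, 1 and 1 against 0, 1 and 4. The ratio of summed counts, scaled by library size, was 2.69 for MT1E (95% exact binomial interval 1.09 to 7.53), 1.22 for MT1F (0.62 to 2.44) and 1.57 for MT1G (0.31 to 10.1). These intervals cover counting error only and leave out the spread between libraries. In an edgeR fit with no filter on low counts, none of the 3 passed, with adjusted p = 0.26 for MT1E and 0.84 for both MT1F and MT1G. MT1E alone had an unadjusted p under 0.05 there, at 0.036.

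MT1A, MT1M and the brain-associated MT3 had 0 counts in all 6 libraries. A count of 0 allows up to 3 counts per library, or 0.343 to 0.384 CPM. Of 13 further metallothionein symbols in the table, which include MT4, MT1B, MT1H and pseudogenes, 11 had 0 counts and the other two together had 3. Along the cluster, the counts thus sat at MT2A and at MT1X, the last gene of the cluster 73.9 kb further on, and the genes between them had few or none, as had MT3 and MT4 on the other side of MT2A.

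**Figure D3:**
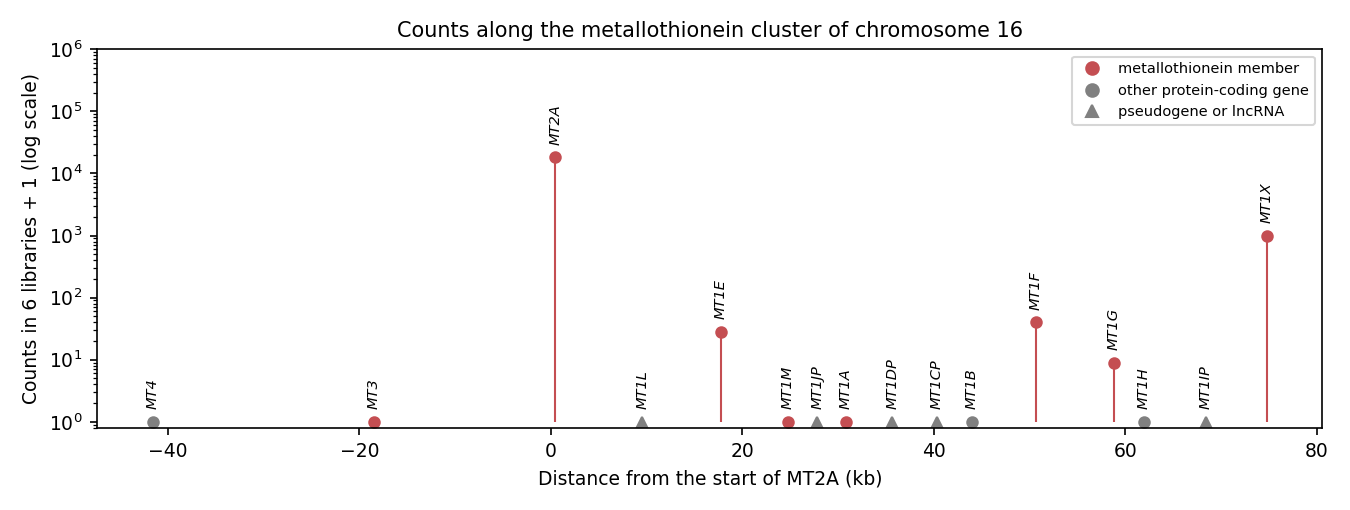
Summed counts of the 6 libraries (plus 1, log scale) for each metallothionein gene or pseudogene of the chromosome 16 cluster, by distance from the start of MT2A in kb. MT2A has 18132 counts and MT1X 997, while MT1F has 39, MT1E 27, MT1G 8 and the other 11 symbols 0.

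Levels of different genes were compared per length of the canonical GENCODE transcript. The level of MT2A was 981 ± 41.6 CPM per kb in CBX8 KO and 839 ± 49.6 CPM per kb upon re-expression (SD, n = 3 each). By the average of the means of both conditions, MT2A ranked 51 of 12386 tested genes with a known length. Among the members, MT1X followed at 47.3 ± 6.54 and 51.5 ± 3.97 CPM per kb. Per length, the order of the next pair changed between conditions, with 7937 bases taken for MTF1 and 5893 bases for SLC30A1. In CBX8 KO, MTF1 (3.36 to 3.71 CPM per kb) lay above SLC30A1 (2.87 to 3.10 CPM per kb), and upon re-expression SLC30A1 (4.35 to 4.59 CPM per kb) lay above MTF1 (3.63 to 4.19 CPM per kb), without overlap in either condition. This change of order rests on the transcript lengths used. In CPM without division by length, MTF1 lay above SLC30A1 in both conditions. The values were 26.6 to 29.5 against 16.9 to 18.3 CPM in CBX8 KO, and 28.8 to 33.2 against 25.6 to 27.0 CPM upon re-expression. MT1F, at 1.64 ± 0.90 and 2.01 ± 0.77 CPM per kb, overlapped MT1E in both conditions, and MT1E overlapped MT1G. Transcripts as short as those of the metallothioneins can lose fragments during library preparation, and no correction was made for this.

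Reads assigned to the wrong paralog leave the sum of the family unaffected, while reads discarded for matching several genes do not enter it. The summed metallothionein level was 415, 398 and 428 CPM in the CBX8 KO libraries and 352, 383 and 342 CPM upon re-expression. The conditions did not overlap, a separation found in this direction for 14.4% of single tested genes. The mean of the sum was 414 ± 15.3 and 359 ± 21.5 CPM (SD, n = 3 each), a log2 ratio of -0.20, close to that of MT2A. MT2A made up 93.6% to 95.7% of the family's counts in each library, so the sum is not an observation separate from MT2A.

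Ratios within a library do not depend on the normalization, and these were chosen after the values had been seen. MT1X took 3.92%, 5.40% and 4.57% of the family's counts in CBX8 KO and 5.71%, 5.90% and 5.74% upon re-expression. The shares did not overlap, although the 95% exact binomial interval of CBX8 KO replicate 2 (4.66% to 6.22%) covers all 3 re-expression values. Relative to MT2A, MT1X was higher upon re-expression by 0.35 on the log2 scale. The corresponding shift was 0.82 for SLC30A1, from 4.42, 4.87 and 4.14 counts per 100 MT2A counts to 7.78, 7.52 and 8.42. For MTF1 relative to MT2A it was 0.41, and for SLC30A1 relative to MT1X it was 0.47. Each of these 4 ratios gave a two-sided exact permutation p of 0.1, and 0.1 after Benjamini-Hochberg adjustment over the 4, which is the smallest value 3 libraries against 3 can give. No conclusion is drawn from these p-values, because the ratios were chosen with the values known and several share MT2A.

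**Figure D4:**
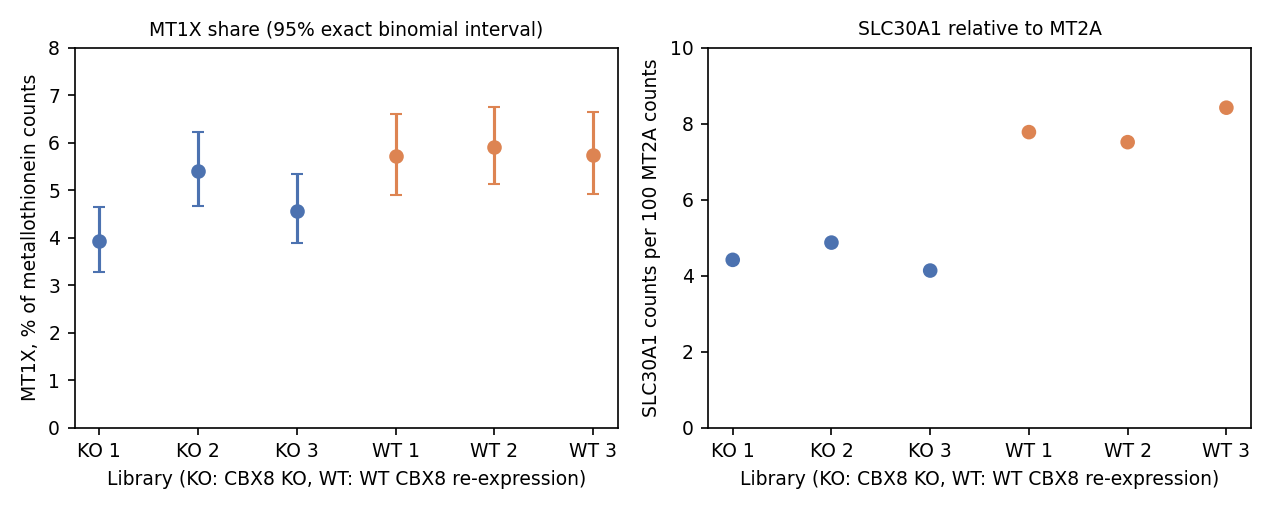
MT1X as a percentage of all metallothionein counts with its 95% exact binomial interval (left) and SLC30A1 counts per 100 MT2A counts (right), for each library. The MT1X share is 3.92% to 5.40% in CBX8 KO and 5.71% to 5.90% upon re-expression, and the SLC30A1 ratio is 4.14 to 4.87 in CBX8 KO and 7.52 to 8.42 upon re-expression.

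To place MT2A among all genes, the 5 most similar patterns were taken by the root mean square difference of centred log2 CPM over the 6 libraries, with 10392 candidates whose average log2 CPM reached 3. These were BAG3 (0.0270), a co-chaperone of HSP70, TWNK (0.0274), the mitochondrial DNA helicase, TALDO1 (0.0312), an enzyme of the pentose phosphate pathway, VDAC1 (0.0312), a channel of the outer mitochondrial membrane, and CAMKK2 (0.0320), a calcium-dependent kinase. The median difference over all candidates was 0.157. Because they were chosen for following MT2A over these libraries, their fold changes are a description that the choice fixes. They lay between -0.23 for TWNK and -0.20 for CAMKK2.

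The calls on the other lists are read beside the 12.9% of all tested genes that were called in either direction. Of 6 tested zinc exporters other than SLC30A1, 0 were called in either direction by edgeR, by DESeq2 or by voom of limma, and in each 1 had an unadjusted p under 0.05. This was SLC30A5, which loads zinc into the secretory pathway, with a log2 fold change of -0.16 and an edgeR adjusted p of 0.072. It passed without CBX8 KO replicate 3 (adjusted p = 0.045) and without re-expression replicate 1 (0.040). The exporters' median log2 fold change was 0.03, beside 0.0049 over all tested genes. Of 9 tested importers of the SLC39A family, 1 was called higher and 1 lower, with a median of 0.02, so that the calls among exporters and importers together were near the share over all genes. SLC39A8 (ZIP8), which carries zinc, manganese and cadmium into cells, fell from 20.7 ± 1.40 to 15.7 ± 1.82 CPM (SD, n = 3 each), or -0.40 ± 0.11 (SE) as log2 fold change with an edgeR adjusted p of 0.014. SLC39A14 (ZIP14), a zinc, manganese and iron importer, rose from 115 ± 1.21 to 128 ± 4.41 CPM (SD, n = 3 each), or 0.16 ± 0.05 (SE) as log2 fold change with an edgeR adjusted p of 0.045. SLC39A8 lost its call without CBX8 KO replicate 2 (adjusted p = 0.078), without re-expression replicate 1 (0.085) or 2 (0.057), and with DESeq2 (0.062). SLC39A14 lost its call in 11 of 15 alternatives, with adjusted p-values of 0.051 to 0.19 in those, including each fit that left out 1 library other than the one without re-expression replicate 3 (0.049).

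Of 14 tested copper handling genes, 1 was called higher and 2 lower, beside 6.23% and 6.63% of all tested genes, with a median of -0.05. COX17, a copper chaperone that delivers the metal to cytochrome c oxidase, rose from 14.1 ± 1.82 to 19.3 ± 2.06 CPM (SD, n = 3 each), or 0.46 ± 0.12 (SE) as log2 fold change with an edgeR adjusted p of 0.0095. STEAP2, a metalloreductase of iron and copper, fell from 20.02 ± 0.99 to 14.8 ± 0.78 CPM (SD, n = 3 each), or -0.43 ± 0.11 (SE) as log2 fold change with an edgeR adjusted p of 0.0059. SCO1, another chaperone of cytochrome c oxidase, had a log2 fold change of -0.19 ± 0.06 (SE), with an edgeR adjusted p of 0.042. SOD1, the copper and zinc superoxide dismutase, had 238 ± 8.90 and 251 ± 2.33 CPM (SD, n = 3 each) and did not pass (edgeR adjusted p = 0.33). COX17 lost its call without CBX8 KO replicate 1 (adjusted p = 0.070) and without re-expression replicate 2 (0.088). SCO1 lost its call in 10 of 15 alternatives, with adjusted p-values of 0.053 to 0.17 in those, including each fit that left out 1 library other than the one without CBX8 KO replicate 1 (0.045).

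**Figure D5:**
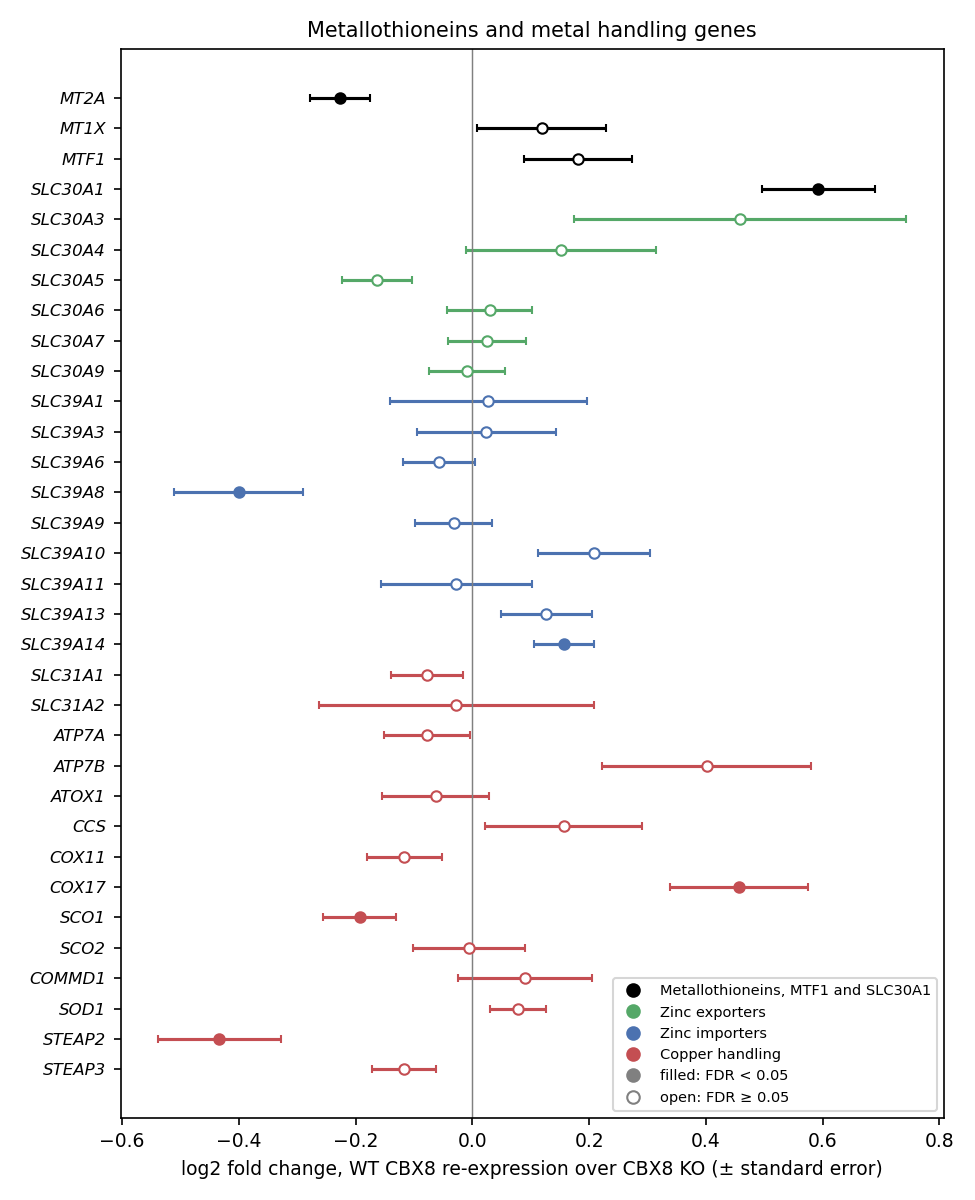
Log2 fold change of WT CBX8 re-expression over CBX8 KO with its standard error for the 4 tested members and all tested zinc exporters, zinc importers and copper handling genes, with filled points for FDR < 0.05. SLC30A1 stands at 0.59 and MT2A at -0.23, and the other called genes are SLC39A8 (-0.40), SLC39A14 (0.16), COX17 (0.46), STEAP2 (-0.43) and SCO1 (-0.19).

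A further list holds genes known to be induced by glucocorticoids, as MT2A is, and the receptor. Of its 12 tested genes, 2 were called higher, 4 lower and 6 in neither direction, beside 6.23% higher and 6.63% lower over all tested genes, and the median log2 fold change was -0.14. CEBPD, a transcription factor, fell from 82.7 ± 1.42 to 52.6 ± 6.80 CPM (SD, n = 3 each), or -0.65 ± 0.07 (SE) as log2 fold change with an edgeR adjusted p of 2.3e-07. KLF9, a Krüppel-like transcription factor, fell with a log2 fold change of -0.37 ± 0.08 (SE), with an edgeR adjusted p of 0.0022. DUSP1, a MAP kinase phosphatase, rose from 13.5 ± 1.24 to 20.5 ± 1.02 CPM (SD, n = 3 each), or 0.60 ± 0.11 (SE) as log2 fold change with an edgeR adjusted p of 0.00037. SGK1, a serum- and glucocorticoid-regulated kinase, rose from 20.6 ± 0.60 to 29.7 ± 1.41 CPM (SD, n = 3 each), or 0.53 ± 0.09 (SE) as log2 fold change with an edgeR adjusted p of 0.00027. GLUL, glutamine synthetase, and ERRFI1, a feedback inhibitor of the EGF receptor, also passed (-0.44 with edgeR adjusted p = 0.034, and -0.14 with 0.048). GLUL lost its call in 7 of 15 alternatives (adjusted p up to 0.19) and ERRFI1 in 10 of 15 (up to 0.26). Among these were the fits without CBX8 KO replicate 1 (0.14 for GLUL and 0.066 for ERRFI1), CBX8 KO replicate 2 (0.13 and 0.11) and re-expression replicate 2 (0.19 and 0.16), for GLUL also without re-expression replicate 1 (0.072), and for ERRFI1 without CBX8 KO replicate 3 (0.12) or re-expression replicate 3 (0.15). FKBP5, a co-chaperone of the receptor, had a log2 fold change of -0.16 (edgeR adjusted p = 0.13), and NR3C1, the receptor itself, of 0.05 (edgeR adjusted p = 0.52).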

How the data were processed

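Oligo dT libraries (3 CBX8 KO, 3 WT CBX8 re-expression) were sequenced as paired-end reads. Adapters were trimmed with Trimmomatic and reads aligned to hg38 with HISAT2, and the table that the authors deposited holds unnormalized read counts by gene symbol. Tool versions, and how and against which annotation and strand reads were counted, are not given in the sources used here. Reads carry no molecular identifiers, so intervals and floors cover counting error only. All 6 count columns were mapped to samples by their names. In R 4.3.3, 14461 genes kept by filterByExpr of edgeR 4.0.16 were normalized by TMM and tested over the whole table with glmQLFit and glmQLFTest at the defaults, condition as the only term, Benjamini-Hochberg adjustment and FDR < 0.05. The standard error of a log2 fold change was derived from it and its F statistic. The fit was tested on simulated data. Alternatives were scaling by RLE, by upper quartile or by library size, 2 other filters, legacy set to FALSE, DESeq2 1.42.0, voom of limma 3.58.1, a replicate block, FDR < 0.01 and each library left out. Annotation is from GENCODE 44 and promoters are from RefSeq. The text names the 10 members, CBX8, cell type markers, called genes of the pathway lists and the 5 patterns nearest to MT2A. Markers of other cell types were to be named only with at least 10 counts in every library. SLC30A5, SOD1, FKBP5 and NR3C1 are named outside this rule, after their values were seen. Also outside it are the markers RBFOX3 and STMN2, the cluster genes MT4, MT1B and MT1H, and ENSG00000259827. The members and lists were chosen with earlier results of these data known. The labels do not say whether libraries come from separate cultures, so p-values measure the spread between these libraries. The labels and column names give no batch.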

Additional observations from a re-analysis of the deposited data

How the results depend on the processing

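MT2A and SLC30A1 stayed past FDR < 0.05, and MT1X and MTF1 short of it, under all 15 alternatives that refit the data, with no change of direction. The log2 fold change of MT2A ranged from -0.28 to -0.17 (adjusted p 7.2e-05 to 0.025) and that of SLC30A1 from 0.56 to 0.65 (3.5e-06 to 0.0011). MT1X ranged from 0.01 to 0.21 and MTF1 from 0.15 to 0.24. At FDR < 0.01, SLC30A1 was still called higher and MT2A lower, and the share of all genes called at this cutoff was not computed. The log2 ratio of the summed metallothionein level ran from -0.25 to -0.15, the latter with library size only, a scaling that moved the median of all genes to 0.06 and the calls over all genes from 901 higher and 959 lower to 1400 and 592. DESeq2 called 502 higher and 695 lower, and edgeR without WT CBX8 re-expression replicate 2 called 593 and 635. In a fit with the replicate block, MT2A was at -0.23 (edgeR adjusted p = 0.015) and SLC30A1 at 0.59 (0.00069), and no call on a member changed, while SLC39A14 (0.091), SCO1 (0.071), GLUL (0.057) and ERRFI1 (0.10) lost theirs. Same-numbered libraries showed no common deviation (Pearson -0.14, -0.16 and -0.08 over 10393 genes), and the number was not treated as a pairing. Depth limits the low members: with at most 10 counts in a library, no change of MT1E, MT1F or MT1G could be settled.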
